A study of Mus musculus with 9 samples.

Results

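Potassium channel genes were taken as every gene whose array symbol began with Kcn followed by a letter and a number, which gave 64 of the 17097 genes measured. Each gene was read from 1 probe set (a group of short probes for the same transcript), the one annotated to that gene alone with the highest mean over the 9 arrays. Of the 64, 63 encoded channel proteins or accessory subunits and 1, Kcnq1ot1, was a long non-coding RNA that carries the prefix because it lies within Kcnq1. By structure there were 21 voltage-gated genes, 15 inward rectifiers, 9 two-pore channels, 7 electrically silent subunits, 5 accessory subunits, 4 calcium-activated channels and 2 of the sodium-activated and Slo3 type.

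Potassium channels let potassium leave or enter the cell and so set the resting membrane potential. In neurons, voltage-gated members end the action potential, G protein-gated inward rectifiers mediate slow inhibition and calcium-activated members shape the pause after a spike. Astrocytes clear potassium released by active neurons through inward rectifiers, and in microglia, macrophages and T cells potassium channels hold the membrane negative during calcium entry, while loss of cell potassium is a known trigger of the NLRP3 inflammasome.

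Gene expression was measured in a block of brain around the injection site, from the injected hemisphere of adult male C57Bl/6J mice aged 10 to 12 weeks. The groups were LPS 4 d (4 days after lipopolysaccharide, a bacterial cell wall component, was injected into the striatum), LPS 1 d (1 day after the same injection) and PBS (4 days after vehicle injection), all perfused with saline before dissection. Each group had 3 arrays, and each array carried a pool of 3 mice, so errors and p values describe pools rather than single animals. There was no PBS group at 1 day, so surgery and time since injection cannot be told apart from LPS in the 1 d comparison, and the PBS arrays were shared by both comparisons with PBS. Values are on the log2 scale, on which a difference of 1 is a doubling. In this bulk tissue fewer cells of a type and less RNA per cell cannot be told apart.

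Arrays of the same group correlated at 0.992 to 0.994 over all probe sets and arrays of different groups at 0.981 to 0.990. General neuron markers were measured for all 8 listed genes and none passed the test at either time. Their median difference from PBS was -0.10 in LPS 4 d and -0.03 in LPS 1 d. Their summed signal on the linear scale was 13600 to 14600 in LPS 4 d, 15000 to 15200 in LPS 1 d and 15100 to 15900 in PBS. The part of neurons in the channel values was not tested. Of 14 markers of hypothalamus and thalamus, 3 (Pmch, Tcf7l2 and Calb2) were lower in LPS 4 d than in PBS, and the median difference was -0.75, -1.16 and -0.20 in the 3 LPS 4 d arrays. T cell markers were at background for 4 of 5 genes in every group. Background was taken as a log2 value of 3.49, the highest mean among 23 nonspecific control probe sets. Of the potassium channel genes, 48 were above background in all groups, 14 were below it in all groups and 2 differed between groups.

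A change was called at a Benjamini-Hochberg adjusted p under 0.05 from limma and a fold change of at least 1.5. In LPS 4 d against PBS, 2 of the 64 genes rose, Kcnn4 and Kcnk6, both on the list of 7 immune cell channels, and 1 fell, Kcnj9, on the list of 28 neuronal channels. Over all genes 4.21% rose and 0.205% fell in that comparison, so the 3.12% of potassium channel genes that rose was near the background share and the 1.56% that fell is a single gene. The unadjusted p there was under 0.05 for 2 genes with higher values (3.12%) and 16 with lower ones (25%), against 10.6% and 7.07% of all genes. In LPS 1 d against PBS no potassium channel gene was called, where 3.86% of all genes rose and 0.532% fell, and the unadjusted p was under 0.05 for 13 genes with lower values (20.3%) and 0 with higher ones, against 8.43% and 9.4% of all genes. With an intensity trend in limma Kcne2 was called too, which made the count 4 in LPS 4 d and 1 in LPS 1 d. In LPS 4 d against LPS 1 d again none was called, where 1.84% of all genes were higher and 1.37% lower, and the unadjusted p was under 0.05 for 6 genes with higher (9.38%) and 4 with lower values (6.25%) in LPS 4 d, against 9.18% and 7.12% of all genes.

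Kcnn4 encodes the intermediate-conductance calcium-activated channel of microglia, macrophages and T cells. Its log2 values were 4.34, 4.15 and 4.42 in LPS 4 d, 3.75, 2.73 and 3.76 in LPS 1 d, and 3.12, 2.96 and 3.27 in PBS. All LPS 4 d arrays were above all others, LPS 1 d replicate 2 was the lowest array of the series, and all PBS arrays were below background. The difference between LPS 4 d and PBS was 1.19 ± 0.25 (SE, n = 3 each, adjusted p = 0.0325 by limma). Because PBS was below background, the fold is given as a bound, at least 1.76-fold higher in LPS 4 d, with PBS arrays set to the background value. At 1 day the difference from PBS was 0.30 ± 0.25 (adjusted p = 0.628), with both group means below background. Without LPS 1 d replicate 2 the fitted difference was 0.64 (adjusted p = 0.0353), but the bound over background was at least 1.2-fold, under the fold threshold. A dimmer probe set for Kcnn4 differed by 0.52 in LPS 4 d against PBS (adjusted p = 0.17). Without any 1 of the 6 LPS 4 d and PBS arrays the Kcnn4 difference was 1.11 to 1.26 and its adjusted p 0.0572 to 0.116.

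Kcnk6 encodes a two-pore potassium channel that has been described as a route of potassium efflux in mouse macrophages. Its values were 6.14, 6.12 and 5.74 in LPS 4 d, 5.72, 5.29 and 5.56 in LPS 1 d, and 5.12, 5.41 and 5.08 in PBS. The lowest LPS 4 d array lay just above the highest LPS 1 d array, while LPS 1 d and PBS overlapped. Kcnk6 rose 1.74-fold in LPS 4 d against PBS, a log2 difference of 0.80 ± 0.15 (SE, adjusted p = 0.0211 by limma). At 1 day the difference was 0.32 ± 0.15 (adjusted p = 0.36), and between the LPS groups it was 0.48 (adjusted p = 0.2). The adjusted p at 4 days was 0.0864 without LPS 4 d replicate 1, 0.0643 without LPS 4 d replicate 2, 0.0801 without PBS replicate 1 and 0.0868 without PBS replicate 3.

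Markers of myeloid cells were higher in the same LPS 4 d arrays. Of 6 microglia markers, 3 were higher in LPS 4 d and 2 lower in LPS 1 d than in PBS, and their summed signal on the linear scale was 1350 to 1520 in LPS 4 d, 349 to 549 in LPS 1 d and 593 to 647 in PBS. Of 11 monocyte and macrophage markers, 8 were higher in LPS 4 d, and 8 were higher and 1 lower in LPS 1 d, with sums of 2930 to 3860 in LPS 4 d, 2090 to 2120 in LPS 1 d and 565 to 626 in PBS. Of these 11, 5 were at background in PBS, and Ly6c1 had the highest PBS mean (8.42) and so the largest part of the PBS sum. Between LPS 4 d and LPS 1 d, 5 were higher and 3 lower in LPS 4 d, the 3 being Ly6c1, Chil3 and Plac8. LPS 1 d replicate 2, the array with the lowest Kcnn4, also had the lowest median of the microglia markers, -1.06 from the PBS mean, and the highest median of 9 neutrophil markers, 2.40. Of these 9 neutrophil markers, 5 were at background in PBS. Compared with PBS, 6 were higher in LPS 1 d and none passed in LPS 4 d, with sums of 235 to 445 in LPS 4 d, 1600 to 4390 in LPS 1 d and 83.8 to 163 in PBS. The part of these cell types in the Kcnn4 and Kcnk6 differences was not tested.

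**Figure D1:**
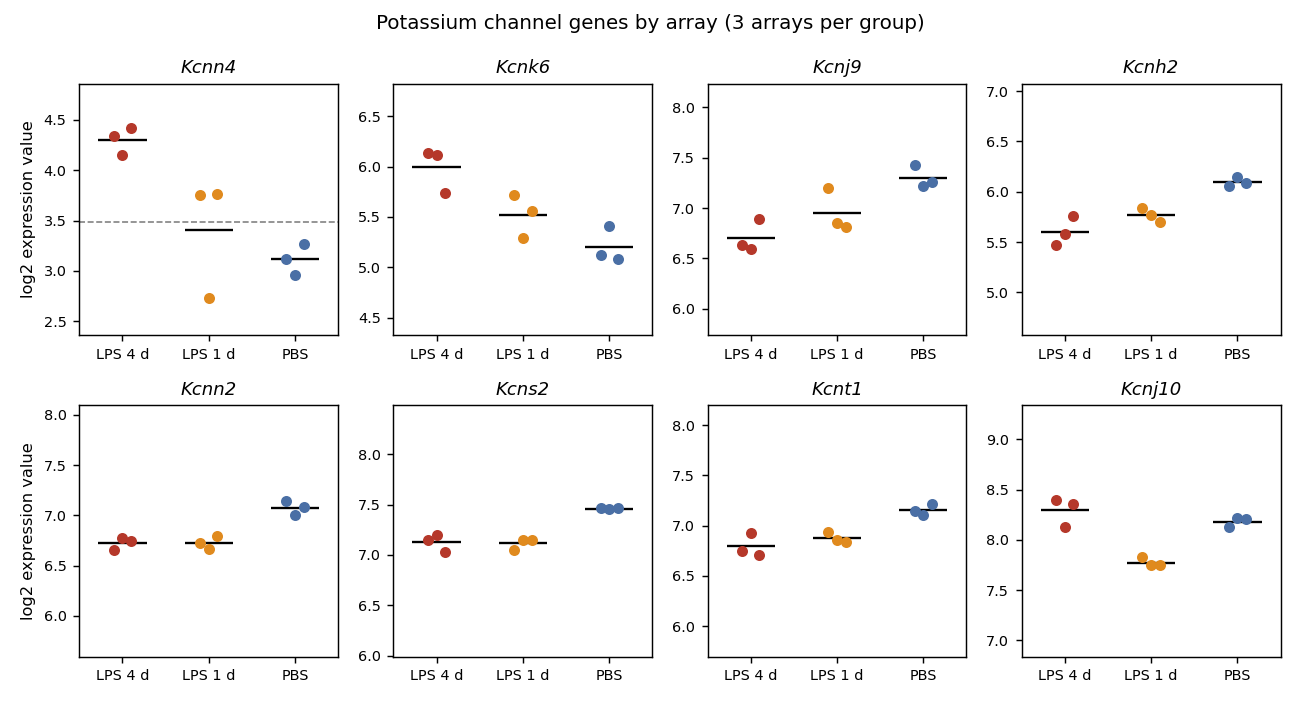
Log2 expression value of 8 potassium channel genes in each array, by group (points: 3 arrays per group, lines: group means, dashed line: background of 3.49). Every panel spans the same log2 range, and the LPS 4 d arrays lie above the PBS arrays for Kcnn4 and Kcnk6 and below them for Kcnj9, Kcnh2, Kcnn2, Kcns2 and Kcnt1.

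The other 5 immune cell channels were not called in either comparison with PBS. Kcna3, the voltage-gated channel of T cells and activated microglia, was 3.64, 3.75 and 3.67 in LPS 4 d, 3.67 in each LPS 1 d array, and 3.51, 3.67 and 3.97 in PBS. These values were close to background, and the difference from PBS was -0.03 in LPS 4 d, with a 95% interval of -0.28 to 0.23. Kcnk13, a two-pore channel of microglia, was 5.42, 5.37 and 5.49 in LPS 4 d, 4.94, 5.60 and 4.93 in LPS 1 d, and 5.42, 5.37 and 5.80 in PBS. Its arrays overlapped in all comparisons. Kcna5, a voltage-gated channel described in macrophages and microglia, was 6.14, 6.52 and 5.92 in LPS 4 d, 6.93, 6.52 and 6.85 in LPS 1 d, and 6.19, 6.52 and 6.53 in PBS, a difference between the LPS groups of -0.57 (adjusted p = 0.175). Kcnj2, an inward rectifier of macrophages and microglia, and Kcnk5, a two-pore channel of T cells, were below background in every group.

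Among 4 glial channels, Kcnj10 was the one that passed the adjusted p. Kcnj10 encodes the main inward rectifier of astrocytes, which buffers extracellular potassium. Its values were 8.40, 8.13 and 8.36 in LPS 4 d, 7.83, 7.75 and 7.75 in LPS 1 d, and 8.13, 8.22 and 8.21 in PBS. The LPS 1 d arrays were below every other array, and LPS 4 d and PBS overlapped. The difference between LPS 4 d and LPS 1 d was 0.52 ± 0.09 (SE, adjusted p = 0.0181) and that between LPS 1 d and PBS was -0.41 ± 0.09 (adjusted p = 0.0415), both under the fold threshold. On p alone 2.25% of all genes were higher and 1.61% lower in LPS 4 d than in LPS 1 d, and 4.51% higher and 1.13% lower in LPS 1 d than in PBS. With each of the 9 arrays left out in turn, the adjusted p of Kcnj10 was 0.00908 to 0.0768 between the LPS groups, under 0.05 in 5 of 9, and 0.0202 to 0.135 in LPS 1 d against PBS, under 0.05 in 2 of 9. Without LPS 4 d replicate 2 the difference between the LPS groups was 0.61 and passed the fold threshold too.

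Of 8 astrocyte markers, 2 were higher than in PBS at each time, Gfap and Aqp4, with summed signals of 6490 to 7080 in LPS 4 d, 6280 to 6390 in LPS 1 d and 5600 to 5950 in PBS. Oligodendrocytes, which also express Kcnj10, had 3 of 7 markers lower in LPS 1 d than in PBS, with sums of 5680 to 6420 in LPS 4 d, 5360 to 5640 in LPS 1 d and 6350 to 6480 in PBS. In LPS 4 d against LPS 1 d, the comparison in which Kcnj10 differed, 1 of 8 astrocyte markers was higher, Gja1 (0.76, adjusted p = 0.00362), and 3 of 7 oligodendrocyte markers were higher, Opalin (1.14), Ugt8a (0.89) and Cnp (0.78). Gja1 was at -0.36 in LPS 1 d against PBS (adjusted p = 0.0912 by limma). Aldh1l1 went the other way there, at 0.55 (adjusted p = 0.00428), under the fold threshold. Between the LPS groups Gfap (-0.33), Aldh1l1 (-0.23), Aldoc (-0.10), Mag (-0.14) and Mobp (-0.14) were lower in LPS 4 d, none of them called. The median over the list in that comparison was 0.06 for astrocytes and 0.57 for oligodendrocytes. The part of either cell type in the Kcnj10 values was not tested. The remaining glial channels were Kcnj16, the partner subunit of Kcnj10, and the two-pore channels Kcnk1 and Kcnk2 of astrocytes. Kcnj16 was at 0.05 in LPS 4 d and 0.03 in LPS 1 d against PBS. A second Kcnj16 probe set almost as bright (mean 5.10 against 5.32) gave 0.03 in LPS 4 d and -0.29 in LPS 1 d (adjusted p = 0.272). Between the LPS groups that probe set differed by 0.32 (adjusted p = 0.273). Kcnk1 and Kcnk2 were at -0.07 and -0.13 in LPS 4 d and -0.15 and -0.38 in LPS 1 d. None of these 3 was called.

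Kcnj9 encodes a subunit of the G protein-gated inward rectifiers that hyperpolarise neurons after activation of inhibitory receptors. Its values were 6.63, 6.59 and 6.89 in LPS 4 d, 7.20, 6.85 and 6.81 in LPS 1 d, and 7.43, 7.22 and 7.26 in PBS. All arrays of both LPS groups were below all PBS arrays. Kcnj9 fell by 0.60 on the log2 scale in LPS 4 d against PBS (SE 0.13, adjusted p = 0.0362 by limma). At 1 day the difference was -0.35 ± 0.13 (adjusted p = 0.227). A second bright probe set for Kcnj9 differed by -0.30 in LPS 4 d (adjusted p = 0.252) and the dimmest pair, below background, by 0.08 and -0.02. Leaving out LPS 1 d replicate 2, LPS 4 d replicate 1 or 2, or any PBS array gave -0.54 to -0.64 with an adjusted p of 0.0543 to 0.125. The LPS 4 d array with the highest Kcnj9, replicate 3, was also the one in which hypothalamus and thalamus markers lay closest to PBS. In the other groups the array with the highest Kcnj9 had the lowest median of these markers. These arrays were LPS 1 d replicate 1 (Kcnj9 7.20, marker median -0.17) and PBS replicate 1 (Kcnj9 7.43, marker median -0.15). The summed signal of those 14 markers, 1 of them at background in every group, was 677 to 1270 in LPS 4 d, 1590 to 2170 in LPS 1 d and 1510 to 2150 in PBS. The part of the dissected region in the Kcnj9 values was not tested.

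Promoter sequences were matched for 2 of the 3 called genes, Kcnn4 and Kcnj9, and not for Kcnk6. They are shown because 1 gene rose and the other fell in LPS 4 d. They run 5′ to 3′ on the gene's strand from 250 bases before to 50 after the annotated start, from RefSeq (GRCm38.p6), with motif matches in capitals.
Kcnn4: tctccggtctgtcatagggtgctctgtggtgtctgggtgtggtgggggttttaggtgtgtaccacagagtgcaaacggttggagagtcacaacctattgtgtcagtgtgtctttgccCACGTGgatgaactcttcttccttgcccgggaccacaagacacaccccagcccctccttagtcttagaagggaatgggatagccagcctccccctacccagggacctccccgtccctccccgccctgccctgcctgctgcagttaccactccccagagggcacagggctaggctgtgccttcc
Kcnj9: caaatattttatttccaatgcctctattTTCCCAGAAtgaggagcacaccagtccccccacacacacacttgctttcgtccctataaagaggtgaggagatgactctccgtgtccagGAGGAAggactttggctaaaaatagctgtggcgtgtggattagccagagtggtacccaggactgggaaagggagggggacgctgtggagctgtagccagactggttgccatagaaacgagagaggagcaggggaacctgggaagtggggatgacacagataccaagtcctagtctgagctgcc
The Kcnn4 window lies at chr7:24370013-24370312 on the plus strand and the Kcnj9 window at chr1:172329273-172329572 on the minus strand, the chromosome that also carries Kcnj10. Motifs searched on both strands were AP-1 (TGANTCA), the interferon-stimulated response element (TTTC, any 2 bases, TTTC), STAT (TTCNNNGAA), PU.1 (GAGGAA), NF-kB (GGG, any 2 bases, TTTCC) and the E-box (CACGTG). Kcnn4 had 1 match, an E-box starting 133 bases before the start, a motif found in 7.15% of 32851 promoters of the same length. Kcnj9 had a STAT match starting 222 bases before the start, found in 8.3% of promoters, and a PU.1 match at 133 bases before it, found in 28.3%, which did not overlap each other. The letters of the AP-1, interferon response and NF-kB motifs, found in 7.81%, 3.44% and 1.63% of promoters, were in neither window.

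The neuronal channels as a list lay slightly below PBS at both times. Of 36 listed genes 28 were measured, and 2 of them, Kcnh7 and Kcnn3, were below background in every group. In LPS 4 d, 24 of 28 had a negative difference with a median of -0.16, and in LPS 1 d 24 of 28 with a median of -0.14, where 55.6% of all genes were below 0 in LPS 4 d (median -0.02) and 56.6% in LPS 1 d (median -0.03). The list median was -0.19, -0.12 and -0.13 in the LPS 4 d arrays, -0.11, -0.18 and -0.14 in the LPS 1 d arrays, and 0.06, -0.05 and -0.01 in the PBS arrays. The medians of all LPS arrays were below those of all PBS arrays. Only Kcnj9 among the 28 was called. Immune cell channels had 3 of 7 differences below 0 in LPS 4 d and 2 of 7 in LPS 1 d, but Kcnj2 and Kcnk5 were below background in every group and Kcnn4 in LPS 1 d and PBS. Glial channels had medians of -0.01 in LPS 4 d and -0.27 in LPS 1 d, with 2 and 3 of 4 below 0.

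**Figure D2:**
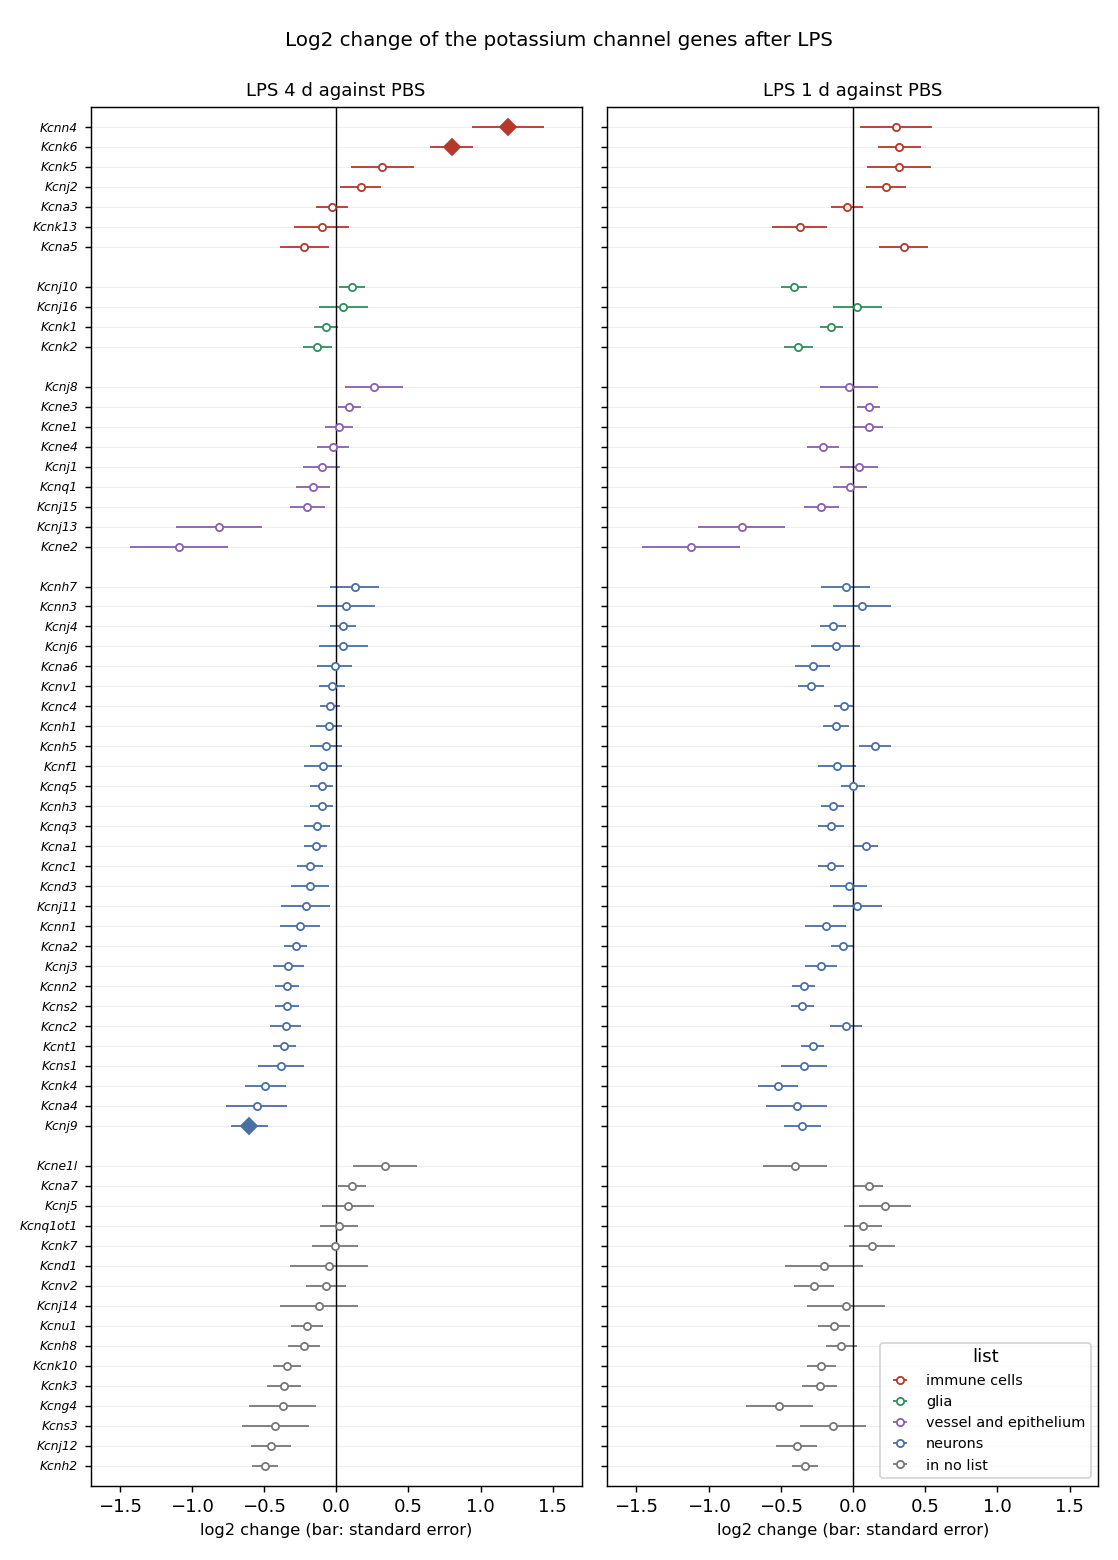
Log2 change of each of the 64 potassium channel genes in LPS 4 d against PBS (left) and LPS 1 d against PBS (right), grouped by list, with standard errors as bars. Filled diamonds mark the 3 called genes, Kcnn4, Kcnk6 and Kcnj9, all at 4 days. In the neuronal list 24 of 28 points lie below 0 in each panel.

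On the adjusted p alone, with or without the fold threshold, 5 of the 64 genes (7.81%) were lower and 2 (3.12%) higher in LPS 4 d than in PBS, against 0.550% and 4.88% of all genes. The 2 higher ones and Kcnj9 were called, and the other 4 did not reach the fold threshold. Of these 4, Kcnn2, Kcns2 and Kcnt1 fell outside the rule for naming genes and were picked after their values were seen. Kcnh2, a voltage-gated channel best known for repolarising heart muscle and also present in neurons, was 5.47, 5.58 and 5.76 in LPS 4 d, 5.84, 5.77 and 5.70 in LPS 1 d, and 6.06, 6.15 and 6.09 in PBS. The difference between LPS 4 d and PBS was -0.49 ± 0.09 (adjusted p = 0.0178), and the LPS 1 d arrays overlapped those of LPS 4 d and lay below PBS. Kcnn2, a small-conductance calcium-activated channel of neurons, was 6.66, 6.77 and 6.75 in LPS 4 d, 6.73, 6.67 and 6.79 in LPS 1 d, and 7.14, 7.0 and 7.08 in PBS. Kcns2, an electrically silent subunit that modifies other voltage-gated channels, was 7.15, 7.20 and 7.03 in LPS 4 d, 7.05, 7.15 and 7.15 in LPS 1 d, and 7.47, 7.46 and 7.47 in PBS. For both genes all LPS arrays were below all PBS arrays and the LPS groups overlapped. The difference from PBS for Kcnn2 was -0.34 in LPS 4 d and -0.34 in LPS 1 d (adjusted p = 0.0425 and 0.0449), and for Kcns2 -0.34 and -0.35 (adjusted p = 0.0444 and 0.0407). Kcnt1, a sodium-activated channel of neurons, differed by -0.36 in LPS 4 d (adjusted p = 0.0472) and -0.28 in LPS 1 d (adjusted p = 0.122). With each array left out in turn, the adjusted p at 4 days stayed under 0.05 in 4 of 9 fits for Kcnh2, 1 of 9 for Kcnt1 and 0 of 9 for Kcnn2 and Kcns2, whose highest values were 0.0734, 0.152, 0.133 and 0.127. In LPS 1 d it stayed under 0.05 in 0 of 9 for Kcnn2 and 2 of 9 for Kcns2.

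The other neuronal channels named here were not called. Kcna1 and Kcna2 encode channels of the axon that limit repetitive firing. Kcna1 was 9.95, 10.01 and 9.85 in LPS 4 d, 10.15, 10.18 and 10.15 in LPS 1 d, and 10.10, 10.02 and 10.10 in PBS, so all LPS 4 d arrays were below and all LPS 1 d arrays above PBS. Kcna2 was 8.49, 8.46 and 8.47 in LPS 4 d, 8.66, 8.74 and 8.66 in LPS 1 d, and 8.86, 8.72 and 8.67 in PBS, a difference of -0.28 at 4 days (adjusted p = 0.0968). Kcnc1 and Kcnc2, which let fast-spiking interneurons fire at high rates, differed from PBS in LPS 4 d by -0.18 and -0.35 (adjusted p = 0.362 and 0.141). An interneuron marker list of 5 genes (Pvalb, Gad1, Gad2, Sst and Npy) was not confined to fast-spiking cells. Of the 5, 1 was lower in LPS 4 d than in PBS, Gad2 (-0.59, adjusted p = 0.0141). Gad2 also lay below LPS 1 d (-0.53, adjusted p = 0.036) without reaching the fold threshold. Pvalb was at -0.17 in LPS 4 d against PBS (adjusted p = 0.486), Gad1 at -0.08, Sst at -0.04 and Npy at 0.04. The part of interneurons in the Kcnc1 and Kcnc2 values was not tested. Kcnq5, a subunit of the slow M current, differed by -0.10 in LPS 4 d and less than its SE in LPS 1 d. Kcnk4, a two-pore channel of neurons opened by stretch, was 5.24, 5.10 and 5.31 in LPS 4 d, 4.90, 5.46 and 5.20 in LPS 1 d, and 5.83, 5.69 and 5.62 in PBS. Its differences were -0.49 in LPS 4 d and -0.52 in LPS 1 d (adjusted p = 0.101 and 0.0827), and without LPS 1 d replicate 2 the second was -0.66 (adjusted p = 0.0325). Kcna4, the A-type channel of axons, was 4.79, 5.65 and 5.64 in LPS 4 d, 5.65, 5.47 and 5.43 in LPS 1 d, and 5.84, 5.90 and 5.98 in PBS, where LPS 4 d replicate 1 stood below the rest. Its differences from PBS were -0.55 in LPS 4 d and -0.39 in LPS 1 d (adjusted p = 0.23 and 0.413), and without LPS 4 d replicate 1 the 4 d difference was -0.26 (adjusted p = 0.284).

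By structure, all 7 electrically silent subunits were below 0 at both times, as were both genes of the sodium-activated and Slo3 type. Of all genes 55.6% were below 0 in LPS 4 d and 56.6% in LPS 1 d. The silent subunits had medians of -0.34 in LPS 4 d and -0.29 in LPS 1 d. Their unadjusted p was under 0.05 for 2 of 7 at each time (28.6%), against 7.07% and 8.43% of all genes with lower values. Kcnv2 was below background in every group. Kcnv1 was at -0.03 ± 0.09 in LPS 4 d, where its next brightest probe set gave 0.03. Voltage-gated genes were below 0 for 19 of 21 in LPS 4 d and 17 of 21 in LPS 1 d, two-pore genes for 7 and 6 of 9, and inward rectifiers for 8 and 10 of 15. In 18 of 64 genes (28.1%) all LPS 4 d arrays lay below all PBS arrays, and in 18 (28.1%) all LPS 1 d arrays did, where 11.8% and 14.0% of all genes did so, and 12 genes were in both counts, which share the PBS arrays. All arrays lay above PBS for 2 genes at each time (3.12%), against 12.0% of all genes in LPS 4 d and 11.5% in LPS 1 d. Between the LPS groups, all LPS 4 d arrays were above all LPS 1 d arrays for 6 genes (9.38%) and below them for 2 (3.12%), against 11.4% and 9.76% of all genes.

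Other ion channel genes were read in the same way for comparison. Potassium channel partners and the large-conductance channel Kcnma1 were measured for 18 of 22 genes, sodium channels for 11 of 15 and calcium channels for 20 of 24, and no gene in these lists was called in either comparison with PBS. Negative differences were found in 16 of 18, 10 of 11 and 17 of 20 in LPS 4 d, and in 13, 8 and 14 in LPS 1 d. The neuronal potassium channels had 24 of 28 at each time. Of 9 measured genes of the potassium efflux and inflammasome list, 5 rose in LPS 4 d, where 4.21% of all genes rose. They were the ATP-gated channels P2rx4 (0.97) and P2rx7 (0.78), the adaptor Pycard (2.79), the protease Casp1 (1.44) and Il1b, the cytokine released downstream. In LPS 1 d 3 rose, Pycard (2.19), Nlrp3 and Il1b, where 3.86% of all genes rose. Between the LPS groups 3 of the 9 were higher in LPS 4 d and 1 lower, against 1.84% and 1.37% of all genes. The lower one was Il1b, with means of 5.14 in LPS 4 d and 8.35 in LPS 1 d (difference -3.22, adjusted p = 0.00228 by limma). The PBS means of Il1b (3.38) and Nlrp3 (3.42) were below background, and Nlrp3 was not called in LPS 4 d (adjusted p = 0.192 by limma).

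**Figure D3:**
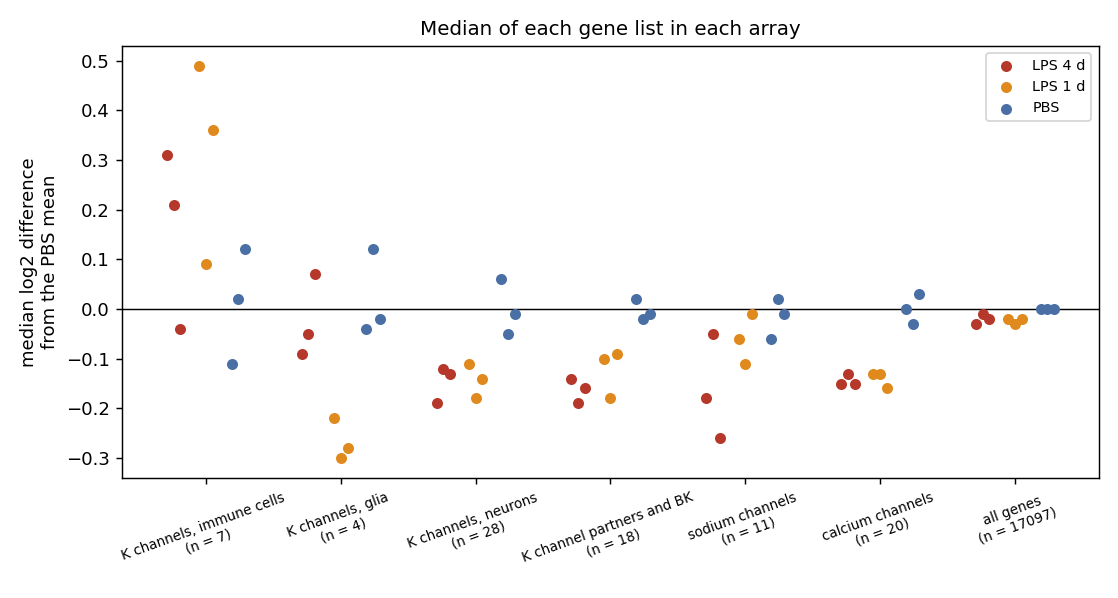
Deviation of each gene list from its PBS mean in every array, as the median log2 difference over its genes (red: LPS 4 d, orange: LPS 1 d, blue: PBS). The LPS arrays of the neuronal potassium channels lie between -0.19 and -0.11, and those of the calcium channels between -0.16 and -0.13. The immune cell list holds members at background, Kcnj2 and Kcnk5 in every group and Kcnn4 in LPS 1 d and PBS, so its medians give no level.

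Kcne2 and Kcnj13 had the largest negative differences of the 64 genes from PBS and were not called in the main setting. Kcne2 encodes an accessory subunit of potassium channels in the choroid plexus, and Kcnj13 an inward rectifier of the same epithelium. Kcne2 was 4.44, 4.70 and 3.44 in LPS 4 d, 4.13, 4.49 and 3.86 in LPS 1 d, and 5.66, 4.74 and 5.44 in PBS. Kcnj13 was 6.41, 6.40 and 5.60 in LPS 4 d, 5.64, 6.49 and 6.42 in LPS 1 d, and 7.30, 6.56 and 6.99 in PBS. All LPS arrays were below all PBS arrays for both genes, yet the arrays of a group spread by up to 0.66 (SD). The differences for Kcne2 were -1.09 ± 0.34 in LPS 4 d and -1.12 ± 0.34 in LPS 1 d (adjusted p = 0.149 and 0.136), and for Kcnj13 -0.81 ± 0.30 and -0.77 ± 0.30 (adjusted p = 0.216 and 0.252). With an intensity trend in limma Kcne2 was called at both times, with adjusted p = 0.045 in LPS 4 d and 0.038 in LPS 1 d. Without LPS 4 d replicate 3 the 4 d differences were -0.71 for Kcne2 and -0.55 for Kcnj13 (adjusted p = 0.271 and 0.41). Of 8 choroid plexus markers, 1 was lower in LPS 4 d than in PBS and 1 in LPS 1 d, with sums of 1550 to 3040 in LPS 4 d, 3580 to 4970 in LPS 1 d and 3210 to 4450 in PBS. These sums were mostly the signal of Ttr, whose PBS mean was 11.77 against 6.86 for the next brightest marker, Clic6. Ttr itself was not called in LPS 4 d against PBS (-0.70, adjusted p = 0.208). The marker median was lowest in LPS 4 d replicate 3 (-1.33), the array with the lowest Kcne2 and Kcnj13, whereas the LPS 1 d arrays were at -0.30, 0.25 and -0.07. The part of choroid plexus in the dissected tissue was not tested.

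**Figure D4:**
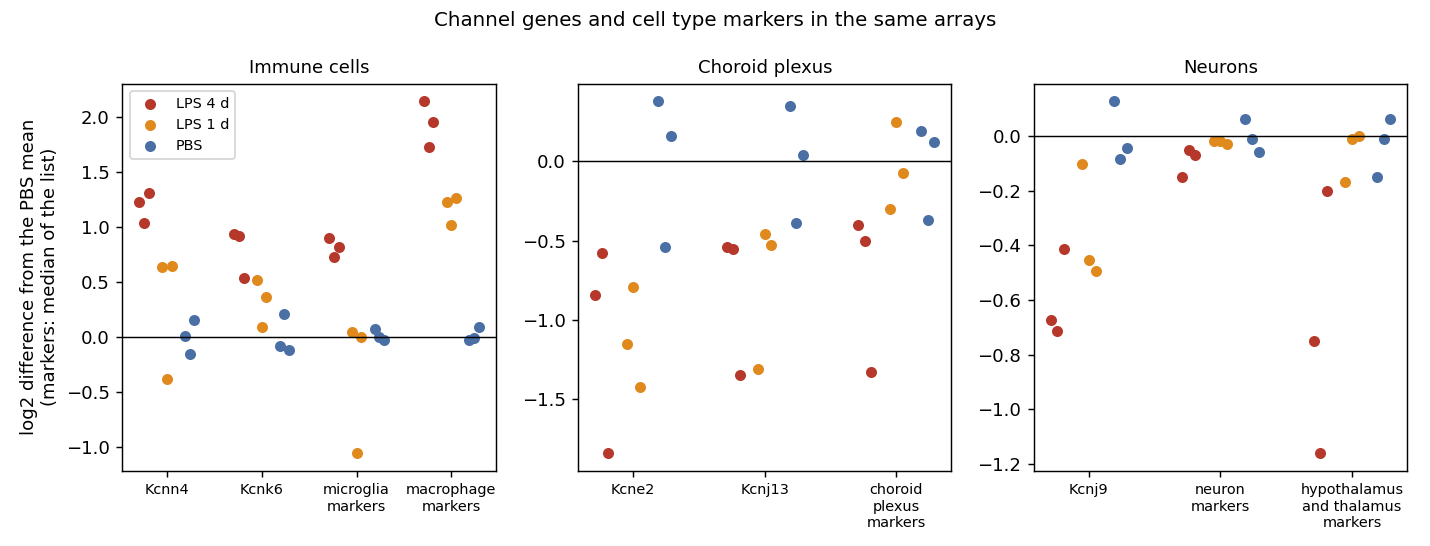
Log2 difference from the PBS mean in each array for channel genes and for the median of cell type marker lists (red: LPS 4 d, orange: LPS 1 d, blue: PBS). LPS 1 d replicate 2 is the lowest array for both Kcnn4 and the microglia markers (-1.06), and LPS 4 d replicate 3 is the lowest for Kcne2, Kcnj13 and the choroid plexus markers (-1.33).

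The remaining named genes were not called either. Kcnj8, the pericyte and smooth muscle channel gated by ATP, differed by 0.26 in LPS 4 d and -0.03 in LPS 1 d against PBS. Kcne1l, an accessory subunit, was 5.51, 4.97 and 4.64 in LPS 4 d, 4.18, 4.32 and 4.40 in LPS 1 d, and 4.38, 4.75 and 4.96 in PBS, a difference between the LPS groups of 0.74 (adjusted p = 0.155), or 0.51 without LPS 4 d replicate 1. The inward rectifier Kcnj12 and the silent subunits Kcns3 and Kcng4 differed by -0.45, -0.42 and -0.37 in LPS 4 d, and by -0.39, -0.14 and -0.51 in LPS 1 d. Kcna6, a voltage-gated channel of neurons, differed by -0.01 in LPS 4 d and -0.28 in LPS 1 d.

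Probe sets of the same gene disagreed for some of the 29 genes that had more than 1. For Kcnq1ot1 the chosen probe set differed by 0.02 in LPS 4 d and 0.07 in LPS 1 d, and another of its 6 differed by -0.39 (adjusted p = 0.0136) and -0.36 (adjusted p = 0.0188). Dimmer probe sets below background for the two-pore channels Kcnk10 and Kcnk3 differed in LPS 1 d by -0.70 and -0.71 (adjusted p = 0.0251 and 0.0181), against -0.22 and -0.23 for the chosen ones. For Kcnh3, a voltage-gated channel of neurons, a second probe set almost as bright as the chosen one (mean 6.48 against 6.57) differed by -0.41 in LPS 1 d against PBS (adjusted p = 0.0183) and by 0.40 between LPS 4 d and LPS 1 d (adjusted p = 0.03), where the chosen one gave -0.14 and 0.05. These genes were picked for this comparison after their values were seen. Across all 3 groups the moderated F-test passed 5 of the 64 genes, Kcnh2, Kcnj10, Kcnk6, Kcnn2 and Kcns2, where 7.67% of all genes passed.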

How the data were processed

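RNA was labelled and hybridised to Affymetrix arrays, and the authors normalised them with RMA in Affymetrix Expression Console, per the labels (version not given in the sources used here). Deposited values are log2 expression values in 1 table of 9 arrays. Array medians were 4.32 to 4.37. After 104 control probe sets were left out, 45037 remained, of which 28898 carried 1 gene symbol, 551 several and 15588 none. Of the 28898, 28689 had an Entrez identifier found in RefSeq. Genes were chosen and listed by the array's own symbols, and no potassium channel symbol differed from RefSeq. All probe sets were fitted in R 4.3.3 with limma 3.58.1 (1 mean per group, moderated errors, 9.02 degrees of freedom), and Benjamini-Hochberg adjustment covered all 45037. Scripts were tested on simulated data. The number of arrays, 3 per group, limits the precision.

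The members and gene lists were chosen with earlier results of these data known. Genes were named if called in any comparison, among the 10 largest absolute changes of each, on the immune cell or glial list, or among the 5 brightest of the neuronal list. Alternatives covered moderation, fold threshold, dim probe sets, normalisation, probe set per gene, replicate number and leaving out each array. Protein sequences were not used here. Tables were prepared with Python 3.11.15, pandas 2.3.3 and numpy 2.4.6.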

Additional observations from a re-analysis of the deposited data

Results flagged for a closer look

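Kcna1 lay on opposite sides of PBS at the 2 times, with every LPS 4 d array below and every LPS 1 d array above. Its differences from PBS were small, -0.14 in LPS 4 d and 0.09 in LPS 1 d (adjusted p = 0.413 and 0.64 by limma). Of all genes, 11.8% had every LPS 4 d array below PBS and 11.5% every LPS 1 d array above it. The difference between LPS 4 d and LPS 1 d was -0.22 (adjusted p = 0.224 by limma), and the next brightest probe sets of the gene gave -0.25 each.

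Kcnj10 differed between LPS 4 d and LPS 1 d by 0.52 (adjusted p = 0.0181 by limma), with an error estimated over all 9 arrays. It was read from a single probe set. Groups of 3 arrays are too small for a search for stray arrays.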

How the results depend on the processing

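The counts of called genes rested on single arrays and on the moderation. In LPS 4 d against PBS, 3 were called, 0 with ordinary tests, 1 at a fold of at least 2 (Kcnn4) 7 with no fold threshold, 4 with an intensity trend and robust estimates (Kcne2 added, adjusted p = 0.045), and 0 to 3 when 1 array was left out. It was 0 without LPS 4 d replicate 1, LPS 4 d replicate 2, PBS replicate 1 or PBS replicate 3, and 1 without PBS replicate 2. In LPS 1 d against PBS, where 0 were called, there was 1 with that trend (Kcne2, adjusted p = 0.038), 3 with no fold threshold, 1 with the probe set of largest SD (Kcnk10), and 0 to 2 with 1 array left out (2, Kcnk4 and Kcnn4, without LPS 1 d replicate 2, though Kcnn4 was below background in PBS and at least 1.2-fold above it in LPS 1 d). In LPS 4 d against LPS 1 d, 0 became 1 (Kcnj10) with no fold threshold or without LPS 4 d replicate 2, and was 0 to 1 in all. The F-test gave 15 with the trend, 3 with ordinary tests, 8 with dim probe sets filtered, 3 with repeated quantile normalisation, and 1 to 4 with 1 array left out, against 5. Replicate numbers did not pair the arrays: deviations of same-numbered arrays correlated at -0.035 to 0.022. With a replicate block 2 genes were called in LPS 4 d against PBS (Kcnn4 and Kcnk6) and the F-test gave 1. Of 1422 alternative values for named genes, 1395 kept their call or lack of one, 39 of them uncalled values that changed sign (at most 0.25 in size in the main setting), 21 lost a call, 5 gained one and 1 reversed, Kcnj9 in LPS 4 d against PBS, at 0.08 (adjusted p = 0.92) with the probe set of largest SD, which is below background. The mean of all its probe sets gave -0.21 (adjusted p = 0.442). With ordinary tests the adjusted p was 0.0638 for Kcnn4, 0.188 for Kcnk6 and 0.167 for Kcnj9. The causes of these differences were not tested. Genes at or near background, 14 of the 64 in all groups, have values that give no order.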
